A study of Homo sapiens with 8 samples.

Results

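A set of 34 genes of glucose uptake, glycolysis, the pentose phosphate pathway and pyruvate entry were followed in ribosome profiling of G401 cells. The genes were taken from a list of gene symbols, by their place in these pathways, with earlier results of these data known. All 34 were found among the 20719 genes of the count tables. G401 is an established cell line from a rhabdoid tumor of the kidney, a cancer defined by loss of SMARCB1, a subunit of the SWI/SNF chromatin remodeling complex. Both derivatives studied carry a Tet-On transgene that doxycycline switches on, which encodes SMARCB1 in one line and GFP in the control line. Each line received 0.1 µg/ml doxycycline (Dox) or DMSO as the control for 12 h in McCoy's 5A medium with serum. This gives 4 groups (SMARCB1 Dox, SMARCB1 DMSO, GFP Dox and GFP DMSO) of 2 libraries each, 8 libraries in all. All groups share the SMARCB1-deficient G401 background, and whether each line is 1 clone is not given in the sources used here.

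Glycolysis splits glucose into pyruvate in the cytosol and yields ATP and NADH. Glucose enters through SLC2A transporters, hexokinase and phosphofructokinase carry out the committing steps, and lactate dehydrogenase regenerates NAD+ when pyruvate is turned into lactate. The pentose phosphate pathway branches off at glucose 6-phosphate and supplies ribose for nucleotides and NADPH for biosynthesis. The pyruvate dehydrogenase complex turns pyruvate into acetyl-CoA inside the mitochondria and is switched off by the PDK kinases. Proliferating tumor cells are known for high glucose uptake and lactate output.

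Libraries were made from the RNA of active ribosomes, and each value is a count of reads inside the coding sequence of a gene. Such a footprint count follows both the amount of an mRNA and how heavily it is translated, and translation efficiency cannot be given without the matched RNA-seq, which is not used here. The libraries held 5924443 to 14000039 gene counts. SMARCB1 mRNA gave 2553 and 1750 footprints after its induction and none (0) in the 6 remaining libraries, where 3 counts per library is the limit that a count of 0 allows. VIM, a mesenchymal marker of rhabdoid cells, was present in every library, at 2497 to 3170 CPM in the SMARCB1 line and 1057 to 1703 CPM in the GFP line (CPM being counts scaled to a library total of 1000000 gene counts). It did not pass the test described further on, with edgeR adjusted p of 0.0715 between the lines under DMSO and 0.0882 under Dox, and its part in the differences between the lines was not tested. PTPRC and CD3E of leukocytes had 0 in all libraries, and EPCAM, CDH1, PECAM1 and CDH5 had at most 11. GFP Dox replicate 1 stood apart: 56.4% of its alignments were not unique, against 25.6 to 39.7% in the other 7 libraries. In bulk samples like these, fewer cells of a type and less RNA per cell cannot be told apart. The labels do not say whether replicates came from separate cultures, so every p-value measures the spread between these libraries, which may be technical.

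Many glycolytic enzymes have processed pseudogenes, copies of the mRNA scattered through the genome, and a footprint that fits several places is not counted as unique. The coding sequence of each gene was therefore read in windows of 30 bases, about the length of a footprint, and searched on both strands of the assembled chromosomes of GRCh38 (hg38). A window was taken as unique if it had no exact copy beyond its own place. Windows across an exon junction, which have no place of their own in the genome, were included. For 22 of the 34 genes over 90% of windows were unique. In 6 genes the share was 60 to 90%, and in another 6 it was under 60%: PGAM1 0%, GAPDH 33.5%, TPI1 37.2%, RPE 49.8%, SLC2A3 51.4% and LDHA 53.4%. The level of these 6 genes relative to other genes is therefore uncertain. For reads of 30 bases the same stretches of sequence would be lost in every library, but the read lengths of the libraries were not examined. The windows below are from PGAM1 and GAPDH, the genes with the lowest shares of unique windows. Higher copy numbers occurred elsewhere on the list, up to 26095 for a window of PDHA1. PGAM1, phosphoglycerate mutase, has no unique window, and the one printed, from chr10:97432358-97432387 on the plus strand, has 9 further exact copies. The first GAPDH window, from chr12:6537124-6537153 on the plus strand, has 10 further copies, and the second, from chr12:6536494-6536523, is the first in the coding sequence that has none.
PGAM1 most copied: tctctgaagaggctatcatggagctgaacc
GAPDH most copied: aagggtcatcatctctgccccctctgctga
GAPDH first unique: atttggtcgtattgggcgcctggtcaccag

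SLC2A3, the high-affinity glucose transporter GLUT3, is a different case, because its copy is a neighboring gene. The SLC2A14 coding sequence holds 651 of the 1459 SLC2A3 windows (44.6%). The next pair of sequences is shown since the separation of these genes rests on single bases: an SLC2A3 window at chr12:7933871-7933900 and its SLC2A14 counterpart at chr12:7832783-7832812, both on the minus strand of GRCh38, with the single base that differs in capitals. The third window, SLC2A3 chr12:7933855-7933884, overlaps the first, starts just after that base and is identical in both genes.
SLC2A3: caccccagctctgatAtttgccatcacagt
SLC2A14: caccccagctctgatCtttgccatcacagt
SLC2A3 and SLC2A14: tttgccatcacagttgctacaatcggctct
SLC2A14 itself had 1 count in SMARCB1 Dox replicate 1 and 0 in the other 7 libraries. The SLC2A3 counts below thus come from libraries in which the windows that tell these genes apart gave almost no SLC2A14 reads.

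**Figure D1:**
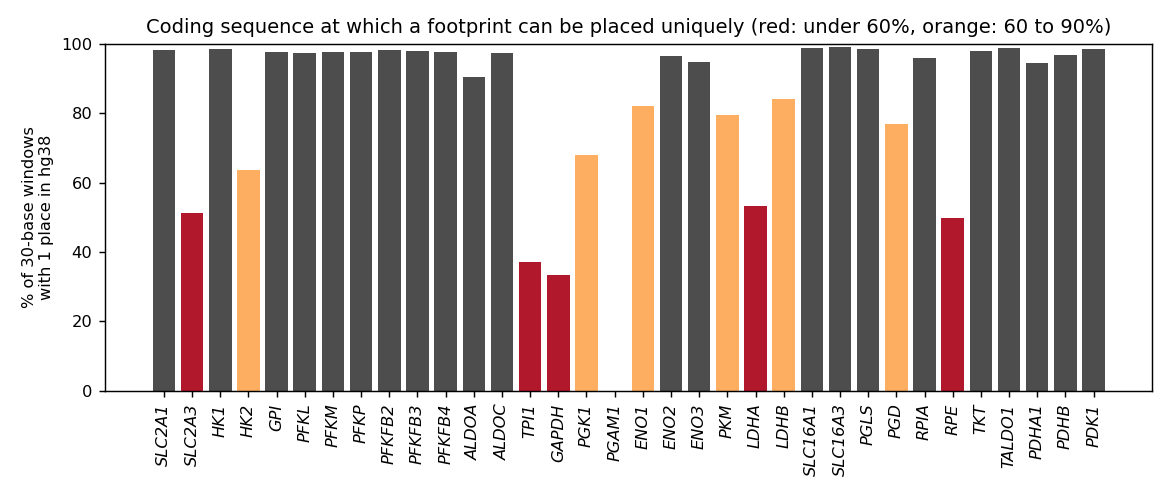
Share of the 30-base windows in the longest coding sequence of each gene that have no exact copy elsewhere in hg38 (bars, percent, from 0 to 100), genes in pathway order. Windows across exon junctions are included. PGAM1 has no bar because its share is 0%, and GAPDH (33.5%) and TPI1 (37.2%) have the lowest shares above it.

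The 34 genes together took 1.24 to 1.53% of all gene counts in a library. The share was 1.41% ± 0.0920 (SD, n = 2) in SMARCB1 Dox, 1.36% ± 0.173 in SMARCB1 DMSO, 1.52% ± 0.0105 in GFP Dox and 1.45% ± 0.0811 in GFP DMSO, so the group means lay within the spread between the SMARCB1 DMSO libraries or close to it. PKM, the last enzyme of glycolysis, held the most counts in all 8 libraries, and the 5 genes with most counts held 64.8 to 66.5% of the counts on the list. Per kilobase of coding sequence, the mean level was 1936 CPM for PKM, 1737 for GAPDH, 1192 for LDHA, 1130 for ENO1 and 551 for ALDOA. PFKFB4, at 0.998 CPM per kilobase, was the lowest of the list. With only unique windows counted as length, GAPDH led at 5413 CPM per kilobase, with PKM at 2717, LDHA at 2606 and ENO1 at 1471. TPI1 came next on that scale at 866, above ALDOA at 672. The later steps of glycolysis and lactate production thus carried most footprints, with GAPDH and LDHA read through only part of their coding sequence.

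**Figure D2:**
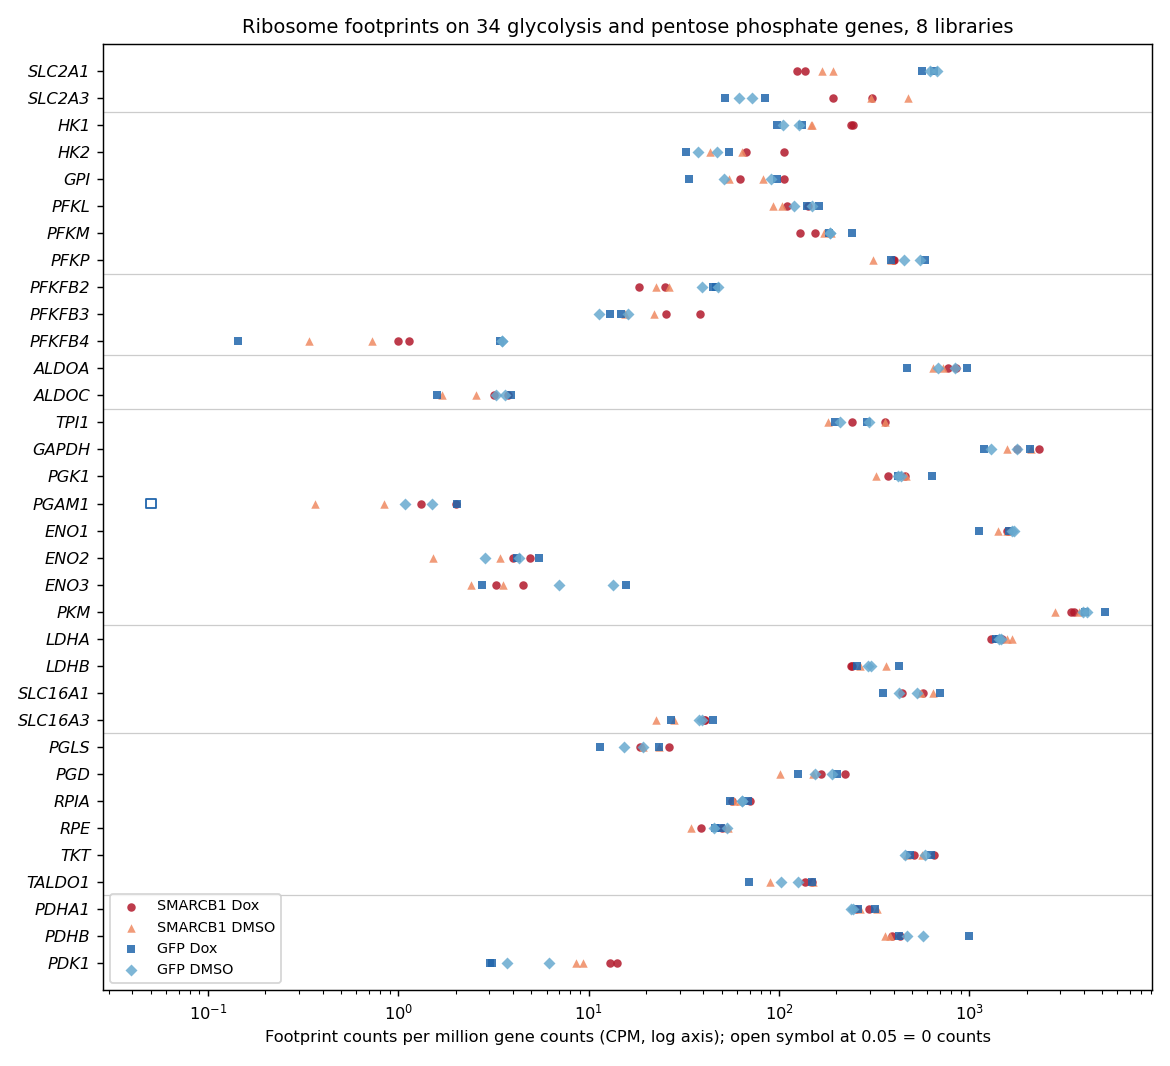
Normalised footprint count (CPM, log axis) of each gene in each of the 8 libraries, genes in pathway order and groups by color and symbol; the open symbol stands for 0 counts (PGAM1 in GFP Dox replicate 1). Red and orange symbols of the SMARCB1 line lie apart from the blue symbols of the GFP line for SLC2A1, SLC2A3 and PDK1, while for most genes the groups overlap.

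Both glucose transporters on the list separated the lines. SLC2A1, the ubiquitous glucose transporter GLUT1 (ENSG00000117394, chr1:42925353-42958893, minus strand), stood at 138 and 124 CPM in the SMARCB1 Dox libraries, 168 and 192 in SMARCB1 DMSO, 563 and 652 in GFP Dox and 620 and 677 in GFP DMSO. All 4 libraries of the SMARCB1 line were below all 4 of the GFP line. SLC2A3 (ENSG00000059804, chr12:7919230-8019007, minus strand) stood at 306 and 191 CPM in SMARCB1 Dox, 476 and 305 in SMARCB1 DMSO, 84.7 and 52.1 in GFP Dox and 71.9 and 61.9 in GFP DMSO. Here the order was the opposite, with every SMARCB1 library above every GFP library.

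The pair of transporters therefore changed places. Per kilobase of coding sequence, SLC2A1 made up 33.4% ± 5.73 (SD, n = 2) of their summed footprints in SMARCB1 Dox and 30.7% ± 8.71 in SMARCB1 DMSO, against 89.0% ± 4.27 in GFP Dox and 89.9% ± 1.53 in GFP DMSO. When only bases that a 30-base read can place uniquely were counted as length, the SLC2A1 shares were 22.3, 20.3, 82.3 and 83.6% in the same order of groups. The gap between the lines was present with or without Dox on both scales.

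The hexokinases, which trap glucose as glucose 6-phosphate, were higher in the SMARCB1 line under Dox for the main isozyme. HK1 (ENSG00000156515, chr10:69269984-69401884, plus strand) had 244 and 240 CPM in SMARCB1 Dox, 148 and 149 in SMARCB1 DMSO, 97.8 and 132 in GFP Dox and 105 and 128 in GFP DMSO. The SMARCB1 Dox libraries were the highest, and the SMARCB1 DMSO libraries lay between them and the GFP line. HK2, the inducible isozyme, had 67.1 and 106 CPM in SMARCB1 Dox and 32.3 to 63.9 in the other 6 libraries. HK1 held 70.9% ± 6.90, 70.6% ± 5.44, 69.8% ± 3.43 and 70.4% ± 0.555 of hexokinase footprints per kilobase in SMARCB1 Dox, SMARCB1 DMSO, GFP Dox and GFP DMSO, so the ratio of the isozymes differed between groups by less than their spread.

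Further down the upper part of the pathway, the lines overlapped. GPI, which turns glucose 6-phosphate into fructose 6-phosphate, ranged from 33.8 CPM in GFP Dox replicate 1 to 107 in SMARCB1 Dox replicate 2. Phosphofructokinase, the main control point, was made up mostly of the platelet isoform PFKP, at 59.7% of the family per kilobase over the 8 libraries, with PFKL and PFKM sharing the rest. PFKM had 128 and 154 CPM in SMARCB1 Dox, below the 173 to 240 CPM of the other 6 libraries. ALDOA held 99.5% of aldolase footprints per kilobase and the brain isozyme ALDOC the remainder.

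The PFKFB enzymes make and break fructose 2,6-bisphosphate, the strongest activator of phosphofructokinase, and their balance differed by line. PFKFB2 (ENSG00000123836, chr1:207034366-207081024, plus strand) had 18.3 and 25.3 CPM in SMARCB1 Dox, 26.3 and 22.6 in SMARCB1 DMSO, 45.1 and 46.5 in GFP Dox and 47.8 and 39.2 in GFP DMSO. All SMARCB1 libraries were below all GFP libraries. PFKFB3, the isoform with the highest kinase over phosphatase activity, had 38.5 and 25.5 CPM in SMARCB1 Dox, 22.1 and 15.5 in SMARCB1 DMSO, 13.0 and 14.8 in GFP Dox and 11.3 and 16.1 in GFP DMSO. The lowest SMARCB1 library was thus inside the range of the GFP line. As a share of the family per kilobase, PFKFB2 went from 74.9% ± 6.16 in GFP DMSO and 78.2% ± 4.04 in GFP Dox to 61.3% ± 2.76 in SMARCB1 DMSO and 45.3% ± 12.6 in SMARCB1 Dox. PFKFB4 had only 1 to 49 counts per library, with 1 in GFP Dox replicate 1 and 22 in GFP Dox replicate 2.

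**Figure D3:**
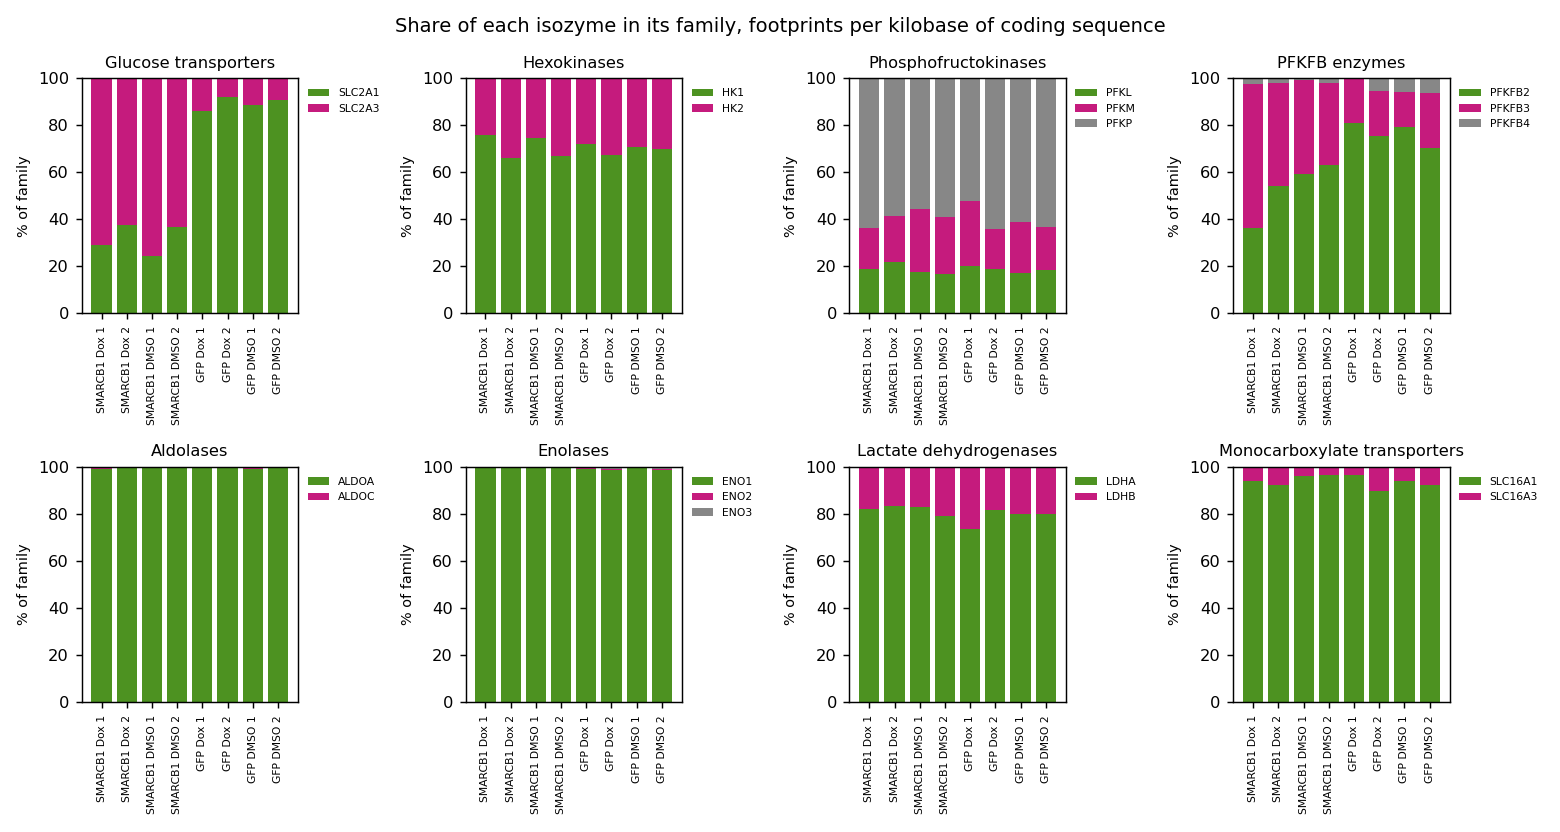
Share of each isozyme in its family (percent of summed footprints per kilobase of coding sequence) in each of the 8 libraries, with 1 panel per family and colors for isozymes. SLC2A1 holds 24.6 to 37.4% in the 4 SMARCB1 libraries and 86.0 to 92.0% in the 4 GFP libraries, whereas the hexokinase, aldolase and enolase panels look alike in all libraries.

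In the lower part of glycolysis the lines overlapped for all genes but PKM. GAPDH, the NADH-producing step, ranged from 1199 to 2318 CPM, PGK1, the first ATP-producing step, from 321 to 634, ENO1 from 1119 to 1719 and TPI1 from 181 to 360. PKM had 3430 and 3544 CPM in SMARCB1 Dox, 2828 and 3761 in SMARCB1 DMSO, 5146 and 4030 in GFP Dox and 3956 and 4147 in GFP DMSO. The SMARCB1 libraries were all below the GFP libraries, by as little as the step from 3761 to 3956 CPM. ENO1 held 99.3% of enolase footprints per kilobase, and the neuronal ENO2 and the muscle ENO3 stayed under 16 CPM. PGAM1 had 0 to 21 counts per library, a level that cannot be read as expression since none of its windows is unique.

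Lactate formation and export carried one predominant isozyme each. LDHA, which favors lactate production, varied least of the 5 genes with the highest level per kilobase, from 1307 to 1685 CPM, and made up 80.4% of LDHA and LDHB per kilobase over the 8 libraries. The lactate exporter SLC16A1 (MCT1) held 94.1% against SLC16A3 (MCT4). SLC16A3 had 40.5 and 40.6 CPM in SMARCB1 Dox, 28.0 and 22.6 in SMARCB1 DMSO, and 27.1 to 44.9 in the GFP line.

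The lines overlapped for every pentose phosphate enzyme on the list. TKT, the transketolase that links the pathway back to glycolysis, was the most abundant of them per kilobase and ranged from 462 to 652 CPM. The oxidative enzyme PGD had 167 and 222 CPM in SMARCB1 Dox, 101 and 151 in SMARCB1 DMSO and 126 to 202 in the GFP line. TALDO1 ranged from 69.4 to 151, RPIA from 55.5 to 70.1, RPE from 34.4 to 53.9 and PGLS from 11.4 to 26.3 CPM. RPIA, which forms ribose 5-phosphate, had the smallest ratio of highest to lowest library among the 34 genes, at 1.26.

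Of the pyruvate dehydrogenase genes on the list, the kinase PDK1 separated the lines, while the enzyme subunits overlapped between them. PDK1 (ENSG00000152256, chr2:172555373-172608669, plus strand), which phosphorylates and inhibits the complex, had 13.0 and 14.2 CPM in SMARCB1 Dox, 8.61 and 9.34 in SMARCB1 DMSO, 3.03 and 3.11 in GFP Dox and 6.17 and 3.71 in GFP DMSO. All SMARCB1 libraries exceeded all GFP libraries, on 20 to 148 counts per library. PDHA1 ranged from 238 to 327 CPM. PDHB had 992 CPM in GFP Dox replicate 1 and 359 to 574 in the other 7 libraries, so its group mean in GFP Dox rests on the library with the high share of non-unique alignments.

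Because uninduced SMARCB1 cells lack SMARCB1 as the GFP cells do, the comparison of the lines under DMSO asks how far they differ before induction. All 34 genes passed the filter on low counts and were among 11097 genes tested with edgeR's quasi-likelihood test. A gene was called at a Benjamini-Hochberg adjusted p below 0.05 and a fold change above 2. In SMARCB1 DMSO against GFP DMSO, 2 of 34 genes were called (5.88%), against 4.97% of all genes tested. SLC2A3 was higher by 2.60 ± 0.35 on the log2 scale (± SE, adjusted p = 0.000199, edgeR), and SLC2A1 was lower, at -1.77 ± 0.24 (adjusted p = 0.000209, edgeR). Both calls held in all 16 alternatives tried. With only the compared groups in the fit, or without GFP Dox replicate 1, the count was 4 of 34, while the count over all genes went from 552 to 686 and 663. PFKFB4, called in the fit on the compared groups, passed the filter there only through GFP DMSO, where it is high. Its call there is no support for a difference beyond its counts. With all groups in the fit, PFKFB2 (-0.77 ± 0.27), PDK1 (0.94 ± 0.40) and HK1 (0.42 ± 0.22) did not pass, at edgeR adjusted p of 0.148, 0.286 and 0.457. The median over the 34 genes was -0.03, beside 0.02 over all genes.

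In SMARCB1 Dox against GFP Dox, which shares no library with the comparison under DMSO but the same lines, 4 of 34 genes were called (11.8%), against 6.08% of all genes. SLC2A1 was lower at -2.34 ± 0.24 (adjusted p = 1.93e-05, edgeR quasi-likelihood test) and SLC2A3 higher at 1.70 ± 0.34 (adjusted p = 0.00580, edgeR). PFKFB2 was lower at -1.21 ± 0.27 (adjusted p = 0.0135, edgeR), and PDK1 was higher at 2.003 ± 0.43 (adjusted p = 0.0102, edgeR). HK1, higher by 0.96 ± 0.23 (adjusted p = 0.0181, edgeR), passed the p threshold below a fold change of 2, which makes 5 of 34 at any fold change (14.7%), against 6.55% of all genes. HK2 (0.89 ± 0.31) and PFKFB3 (1.08 ± 0.32) had edgeR adjusted p of 0.115 and 0.0631, and each came below an adjusted p of 0.05 in 3 of the 16 alternatives.

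These calls depended on single libraries to differing degrees. SLC2A1 kept its call without any one library. Without SMARCB1 Dox replicate 1, SLC2A3 (1.31, adjusted p = 0.107), PFKFB2 (-0.99, 0.235), PDK1 (2.06, 0.0613) and HK1 (0.94, 0.158) no longer passed in edgeR, which left 1 gene called. Without SMARCB1 Dox replicate 2, PDK1 (1.95, edgeR adjusted p = 0.0663) and HK1 (0.97, 0.126) did not pass either, and HK1 also missed the threshold without GFP Dox replicate 1 (0.88, 0.0658) and with only the compared groups in the fit (0.96, 0.0528). Without GFP Dox replicate 2, on the other hand, the lone GFP Dox library is the one that stood apart, and 9 of 34 genes and 1372 of all genes were called. The sign of these 5 genes was the same in all 16 alternatives.

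Taking Dox and DMSO together, 6 of the 34 genes (17.6%) had all 4 SMARCB1 libraries on one side of all 4 GFP libraries, which is close to the 16.9% of all genes for which this holds. SLC2A3, HK1 and PDK1 were higher in the SMARCB1 line, and SLC2A1, PFKFB2 and PKM were lower. By this count the list lay near all genes, while its share called between the lines under Dox was 11.8% against 6.08%. Whether the list as a whole differs from other genes was not tested. PKM had -0.22 ± 0.29 under DMSO and -0.55 ± 0.29 under Dox, with edgeR adjusted p of 0.845 and 0.336. Under Dox it passed the p threshold without GFP Dox replicate 2 (-0.83, edgeR adjusted p = 0.0443).

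**Figure D4:**
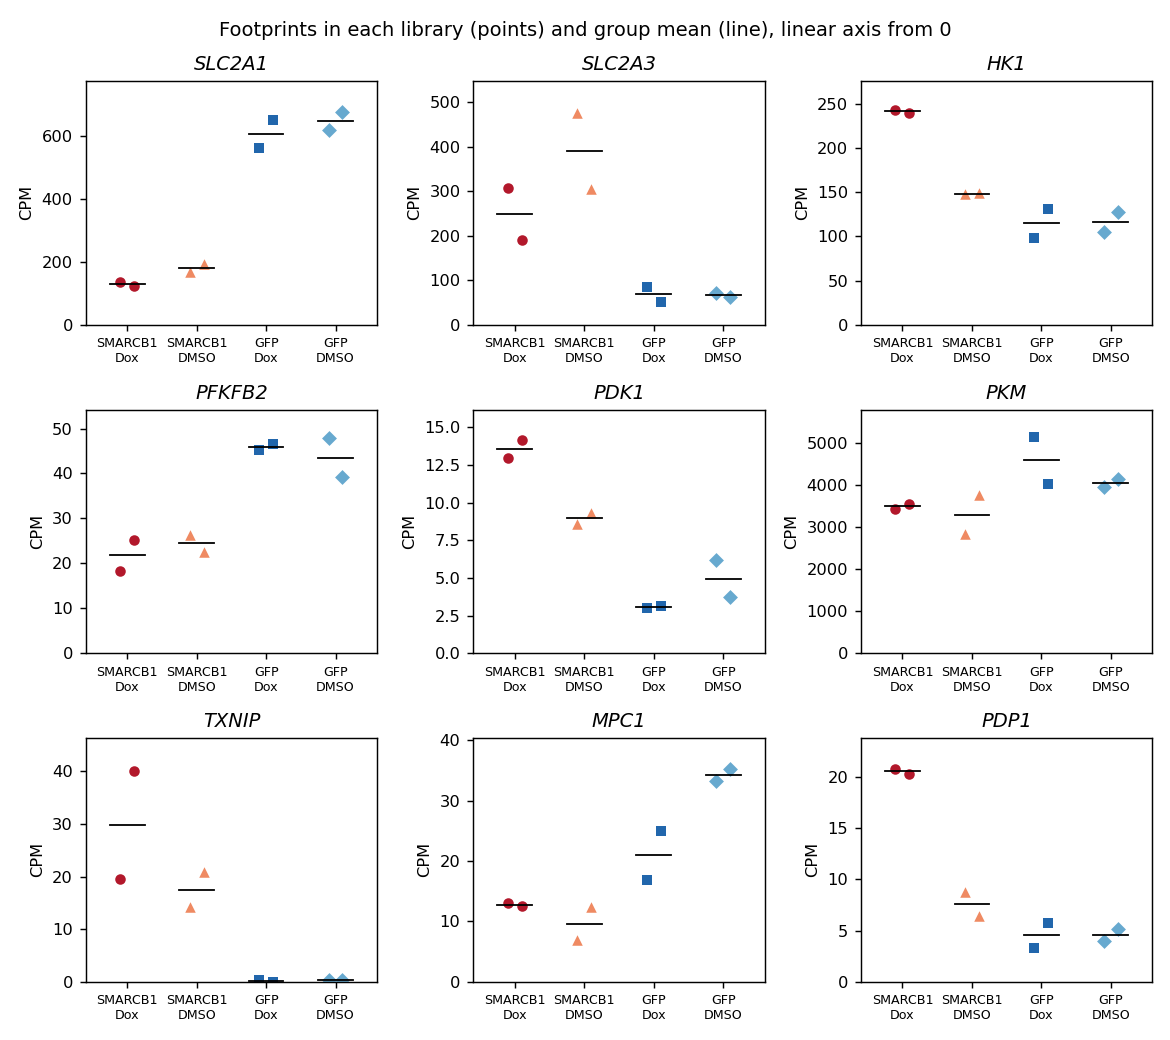
Normalised footprint count (CPM) in each library (points) and group mean (line) on linear axes from 0, for the 6 genes of the list whose 4 SMARCB1 libraries do not overlap the 4 GFP libraries, and for the related genes TXNIP, MPC1 and PDP1. SLC2A1 is at or below 192 CPM in the SMARCB1 line and at or above 563 in the GFP line, and SLC2A3 shows the reverse order.

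Re-expression of SMARCB1 itself, as SMARCB1 Dox against SMARCB1 DMSO, changed none of the 34 genes past the threshold: 0 were called by edgeR and 0 by DESeq2, with 5 (14.7%) at an unadjusted edgeR p below 0.05. Of all genes, 0.018% were called and 4.97% had such an unadjusted p. These 5 genes were HK1, PFKFB3, SLC16A3, SLC2A1 and SLC2A3. The fitted change was 0.59 ± 0.22 for HK1, 0.68 ± 0.32 for PFKFB3, -0.57 ± 0.23 for SLC2A1 and -0.74 ± 0.33 for SLC2A3, with adjusted p between 0.810 and 0.998 (edgeR). HK2 stood at 0.56 ± 0.30 and PDK1 at 0.48 ± 0.39, both with an edgeR adjusted p of 1. The median over the list was 0.04, beside -0.02 over all genes. On the log2 scale, 22 of 34 genes (64.7%) lay within 0.5 of 0, against 80.4% of all genes. The median SE over the list was 0.30. In simulated counts for this comparison, 21% of genes changed 2-fold and 85% of those changed 4-fold reached an adjusted p below 0.05 in edgeR. A missing call is thus not evidence that a gene stayed the same.

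The control comparison asks what Dox and GFP did without SMARCB1. In GFP Dox against GFP DMSO, 0 of 34 genes were called by edgeR or DESeq2 and 0 had an unadjusted edgeR p below 0.05, against 0% of all genes called and 2.16% at that unadjusted p. The median was 0.06 over the list and 0.02 over all genes, and the values ran from -0.97 for PFKFB4 to 0.59 for PDHB. PDHB would be called without GFP Dox replicate 2, which leaves only the replicate with 992 CPM. The log2 ratio of replicate 1 to replicate 2 fell with the GC content of the coding sequence in both GFP groups, with r of -0.43 in GFP Dox and -0.60 in GFP DMSO across the 34 genes, as a description over genes that share the same libraries. In SMARCB1 Dox and SMARCB1 DMSO r was -0.23 and 0.0462 across the list. Over 11096 genes it was -0.22 in GFP Dox, -0.35 in GFP DMSO, -0.23 in SMARCB1 Dox and -0.22 in SMARCB1 DMSO. The part of GC content in the results was not tested.

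The difference between the Dox effects of the lines, fitted as an interaction, was past the threshold for 0 of 34 genes by edgeR and by DESeq2, with 0 at an unadjusted edgeR p below 0.05 and 0% of all genes called by edgeR and 3.99% at that unadjusted p. It was -0.57 ± 0.33 for SLC2A1, -0.90 ± 0.46 for SLC2A3, 0.53 ± 0.32 for HK1, -0.44 ± 0.38 for PFKFB2 and 1.06 ± 0.58 for PDK1, all at an edgeR adjusted p of 0.981. Although HK1, PFKFB2 and PDK1 passed between the lines under Dox and not under DMSO, a change of the gap with Dox was not shown for them.

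**Figure D5:**
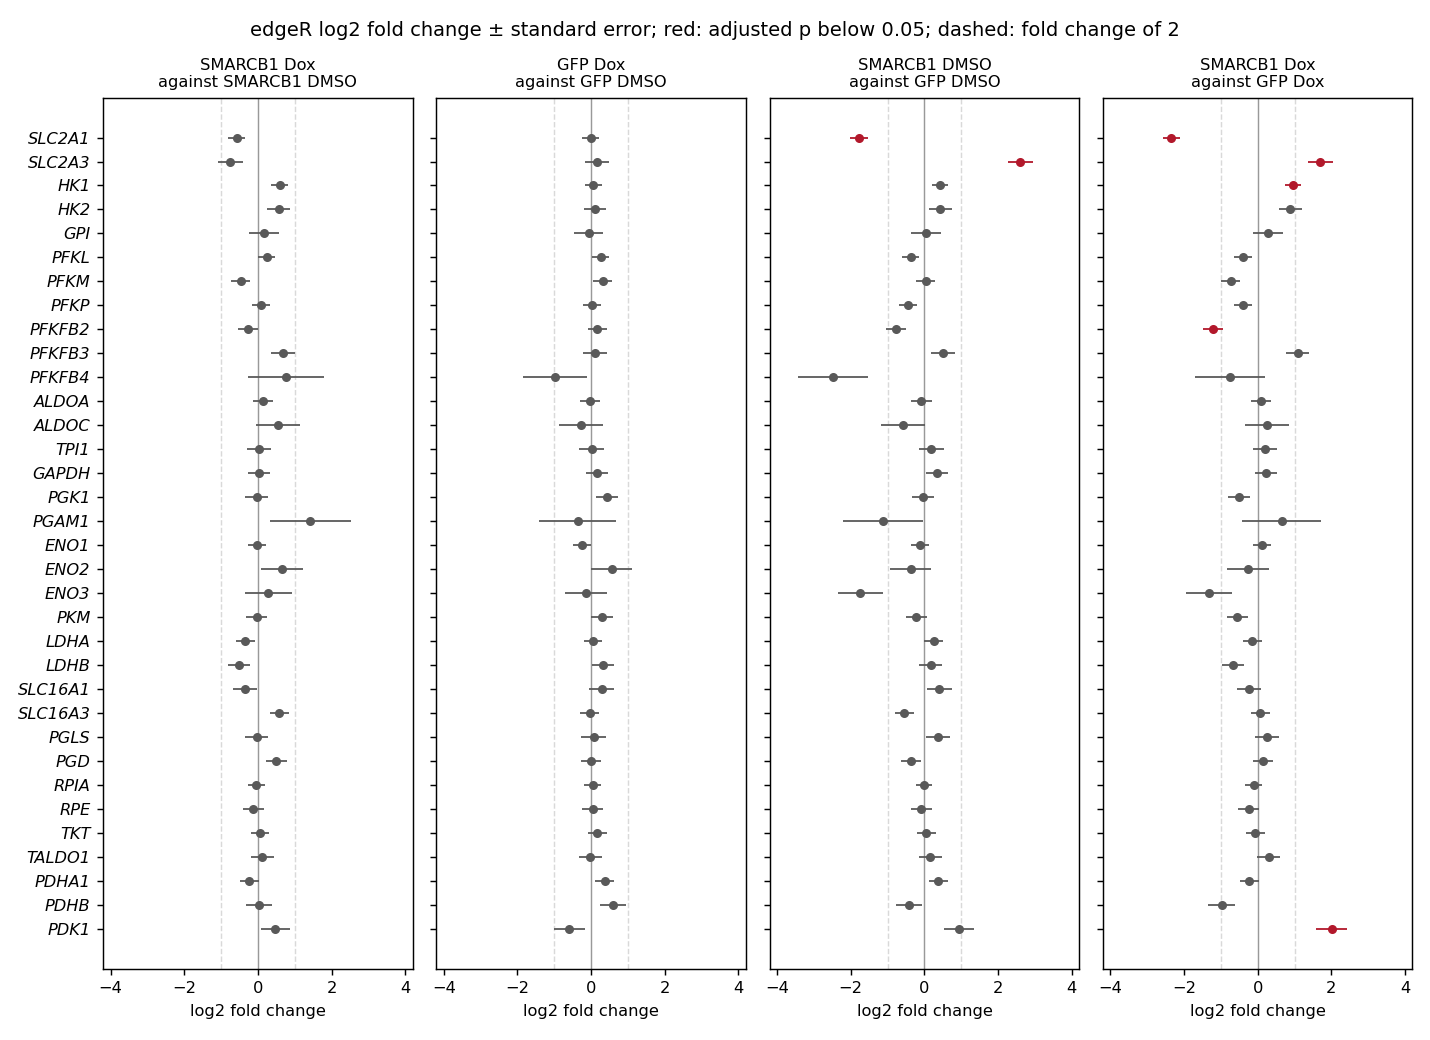
Log2 fold change (points) and standard error (bars) of the 34 genes in the Dox comparison of each line and in the comparison of the lines under DMSO and under Dox; red marks an adjusted p below 0.05 and dashed lines a fold change of 2. Red points occur only between the lines: SLC2A1 and SLC2A3 in both, and HK1, PFKFB2 and PDK1 under Dox.

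A wider list of 56 genes of glucose and pyruvate metabolism, covering other transporters, isozymes, gluconeogenesis, pyruvate entry and side branches, gave 38 genes that were tested. Under DMSO 2 of the 38 were called between the lines, TXNIP higher and MPC1 lower, and under Dox also 2, TXNIP and PDP1, both higher. That is 5.26% in each case, beside 4.97% of all genes under DMSO and 6.08% under Dox. None of the 38 was called in either Dox comparison or in their difference by edgeR, where 4, 0 and 3 (10.5, 0 and 7.89%) had an unadjusted p below 0.05, beside 4.97, 2.16 and 3.99% of all genes. TXNIP, which removes glucose transporters from the cell surface and is induced by glucose, had 222 and 241 counts in SMARCB1 Dox, 84 and 285 in SMARCB1 DMSO, 2 and 0 in GFP Dox and 3 and 5 in GFP DMSO. It was nearly absent from the GFP line. The ratio of its summed counts, scaled by library totals, was 61.1 under DMSO (95% exact binomial interval 30.7 to 143) and 178 under Dox (48.9 to 1471), intervals that cover counting error only. TXNIP passed the filter on low counts only through the SMARCB1 line, where it is high, so its call is no support for a difference beyond these counts.

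Pyruvate enters mitochondria through the carrier of which MPC1 is a subunit. MPC1 had 149 and 75 counts in SMARCB1 Dox, 41 and 169 in SMARCB1 DMSO, 117 and 161 in GFP Dox and 399 and 494 in GFP DMSO, or 13.1, 12.5, 6.92, 12.3, 16.9, 25, 33.2 and 35.3 CPM in that order. It was lower in the SMARCB1 line by edgeR under DMSO (-1.72 ± 0.33, adjusted p = 0.00474) and did not pass under Dox (-0.82 ± 0.33, adjusted p = 0.182). PDP1, the phosphatase that reverses the action of the PDK kinases, had 20.8 and 20.3 CPM in SMARCB1 Dox, 8.78 and 6.42 in SMARCB1 DMSO, 3.32 and 5.75 in GFP Dox and 4.0 and 5.14 in GFP DMSO. Its edgeR difference was 0.78 ± 0.37 under DMSO (adjusted p = 0.384) and 2.07 ± 0.39 under Dox (adjusted p = 0.00364). The kinase PDK1 and the phosphatase PDP1, which act against each other, were thus both higher in SMARCB1 Dox than in GFP Dox. Related kinases and a related phosphatase went the other way without a call. The kinases PDK2 and PDK3 had -0.54 ± 0.39 and -0.47 ± 0.34 there, with edgeR adjusted p of 0.502 and 0.496. The phosphatase PDP2 had 25.7 and 19.8 CPM in SMARCB1 Dox, against 28.0 and 37.0 in GFP Dox.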

How the data were processed

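The deposited files hold raw counts of ribosome footprints per gene that the authors made from RiboLace libraries with STAR and HTSeq (coding sequence features, intersection-strict mode) on hg38 with GENCODE 42. Tool versions, the strand setting and the handling of duplicates are not given in the sources used here. The 5 HTSeq total rows per file were left out. Symbols and coordinates came from GENCODE 44 on the same assembly, which matched 20408 of 20719 gene IDs (311 unmatched) and all 34 listed genes.

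CPM is the count scaled to a library total of 1000000 gene counts. Genes were tested with edgeR 4.0.16 in R 4.3.3 (filterByExpr by group, TMM factors of 0.872 to 1.05, quasi-likelihood test, 1 term per group over 8 libraries, Benjamini-Hochberg adjustment), which left 11097 genes. The called genes had an adjusted p below 0.05 and a fold change above 2, and SE is the fold change divided by the root of F. The replicates correlated at 0.950 to 0.985 across genes (log2 CPM), and no pair differed by as little as sampling noise. The script that fits the model was tested on simulated data, without the difference between the Dox effects. At an adjusted p below 0.05, edgeR found 17 to 24% of genes changed 2-fold and 79 to 89% of those changed 4-fold. It also passed 7 to 12 unchanged genes per comparison. Lengths are the union of annotated coding sequence.

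The text names all 34 listed genes, SMARCB1, marker genes of the cell type and every gene of a wider list of 56 called in any comparison. It also names SLC2A14 as the copy of SLC2A3, PDK2, PDK3 and PDP2 beside PDK1 and PDP1, and HKDC1. The members and lists were chosen with earlier results of these data known. Alternatives were RLE scaling, library size alone, DESeq2 1.42.0, no filter, a minimum of 10 counts per library, fits on the compared groups alone, the replicate number as a block, robust fitting and each library left out. Same-numbered libraries deviated together with correlations of 0.0454 to 0.280 across groups, not above 0.1 in every pair, so the numbers were not treated as pairs.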

Additional observations from a re-analysis of the deposited data

How the results depend on the processing

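Of 521 values of single genes recomputed under the alternatives, 505 kept their direction and their side of an adjusted p of 0.05, 8 rose above and 7 came below that p at any fold change, and 1 reversed: PKM between the lines under DMSO, not called, ran from -0.51 to 0.0186 when each library was left out, the latter without SMARCB1 DMSO replicate 1. For SMARCB1 Dox against SMARCB1 DMSO, 2 genes of all tested were called, and 34 with DESeq2, 46 with no filter, 1 with at least 10 counts in every library, 5 with only the compared groups and 13 with the replicate block. The block added no gene of the list there. It brought HK2 (0.88) and PFKFB3 (1.07) below an adjusted p of 0.05 between the lines under Dox, and it changed no other call of a listed gene from passing to not passing. For GFP Dox against GFP DMSO, 14 genes were called with no filter, and for the difference between the Dox effects 1 with DESeq2 and 15 with no filter. Between the lines, at least 10 counts in every library left 288 genes under DMSO and 377 under Dox, and with only the compared groups 4 genes of the list were called under DMSO, ENO3 and PFKFB4 in addition. The cause was not tested. TXNIP has no value under that count filter, and the difference between the Dox effects cannot be fitted on the compared groups alone. In the fit on the DMSO groups alone, PFKFB4 passed the filter on low counts only through GFP DMSO, where it is high. Its call there adds no support.

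Leaving out each library gave 1 (without SMARCB1 Dox replicate 1 or either SMARCB1 DMSO library) to 22 genes (without either GFP Dox library) for SMARCB1 Dox against SMARCB1 DMSO. It gave 0 to 147 for GFP Dox against GFP DMSO and 0 to 105 for the difference, both highest without GFP Dox replicate 2. Between the lines it gave 299 to 668 under DMSO, with 324 and 299 without GFP DMSO replicates 1 and 2, and 348 to 1372 under Dox, with 348 and 379 without SMARCB1 Dox replicates 1 and 2 and 1372 without GFP Dox replicate 2. Of the list, 0 to 1, 2 to 4 and 1 to 9 genes were called in the GFP Dox, DMSO and Dox line comparisons, where a group left with 1 library is assumed to vary like the others. The HK1 share per uniquely placeable length was 64.2% in SMARCB1 DMSO, 63.3% in GFP Dox and 63.9% in GFP DMSO, where the longest coding sequence gave 73.3%, and the LDHA share was 88.0%. The SLC2A1 shares on that scale were 22.3% in SMARCB1 Dox, 20.3% in SMARCB1 DMSO, 82.3% in GFP Dox and 83.6% in GFP DMSO. Library size alone moved the median of all genes by over 0.1, to 0.09 and 0.11 in the SMARCB1 Dox and Dox line comparisons and to 0.16 in the difference, and the median of the 34 genes moved with it. Depth limits PFKFB4, ALDOC and ENO2, with at most 60 counts in any library, and PGAM1 is limited by its lack of unique windows.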

Other observations

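HKDC1, a hexokinase-like gene of the wider list that was singled out after its values were seen, had 37 and 23 counts in SMARCB1 Dox, 0 and 7 in SMARCB1 DMSO, 0 and 2 in GFP Dox and 0 and 7 in GFP DMSO. The ratio of summed counts, scaled by library totals, was 9.66 for SMARCB1 Dox against SMARCB1 DMSO (95% exact binomial interval 4.41 to 25.1) and 23.0 against GFP Dox (6.10 to 194), intervals for counting error only. HKDC1 passed the filter on low counts only through SMARCB1 Dox, where it is high. The ratios are thus no support for a difference beyond these counts. HKDC1 was not called by edgeR in any of the 5 comparisons.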
